A study of Rattus norvegicus with 52 samples.

Results

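The renal sodium pump genes described here are Atp1b1, Fxyd2 and Fxyd4, measured in whole kidney RNA of 26 male rats. Every probe set of the RAE230A and RAE230B arrays whose platform gene symbol, or an older alias of it, was one of these genes was taken, whatever its values. This gave 4 probe sets of 3 genes among 31042 probe sets other than controls. Atp1b1 had 2 probe sets, 1367814_at and 1386937_at, which the platform annotation ties to the same sequence record. Fxyd2 had 1387799_at and Fxyd4 had 1387092_at. All 4 lay on RAE230A and all 4 passed the filter on dim probe sets, which kept 15473 probe sets for testing.

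The sodium pump (Na,K-ATPase) moves sodium out of the cell and potassium into it against their gradients, and in kidney tubules it sits in the basolateral membrane and drives the reabsorption of sodium from the filtrate. It is built of a catalytic alpha subunit and a glycosylated beta subunit, which is needed for the folding of the alpha subunit and its delivery to the membrane. A small FXYD protein can join the pair and adjust the pump's affinity for sodium and potassium and its turnover. Atp1b1 encodes the beta1 subunit, the main beta subunit of kidney tubules. Fxyd2 encodes the gamma subunit, which is abundant in proximal tubule and thick ascending limb. Fxyd4 encodes corticosteroid hormone-induced factor (CHIF), found in the collecting duct and described in rats as raising the pump's affinity for sodium.

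The congenic strains are called ET3x2 and ET3x1 here, the short forms of their strain labels, and they were set against S (SS/Jr), the Dahl salt-sensitive rat. By the naming rule for congenic strains, both hold donor chromosome from the R strain in an S recipient. Weaning was at 30 days onto food with 0.4% NaCl. At 39 to 41 days some rats of every strain were given 4% NaCl food for 24 hours, and all were killed with pentobarbital at 40 to 42 days. The groups held 4 ET3x2 rats on high salt and 4 on low salt, 4 ET3x1 rats on high salt and 4 on low salt, and 5 S rats on high salt and 5 on low salt. RNA of each rat's left kidney went to its own pair of arrays with no pooling, so that each rat is 1 replicate. The values are the deposited log2 values, and a difference of 1 on that scale is a doubling. The array medians lay between 7.47 and 7.52 on RAE230A. All 7 proximal tubule genes, all 5 thick ascending limb genes and 6 of the 7 collecting duct principal cell genes listed as markers passed the filter. In whole kidney, fewer cells of a type and less RNA per cell cannot be told apart.

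One member promoter is in the RefSeq sequence table, that of Fxyd4, on assembly GRCr8 at chr4:152786046-152786295, minus strand. It is shown as the regulatory sequence on hand for a member, and because Sp1, a factor that binds GC boxes, is among the genes tested with the pump. The 250 bases before the gene's start are written 5′ to 3′, with capitals marking the GC box GGGCGG.
Fxyd4 promoter: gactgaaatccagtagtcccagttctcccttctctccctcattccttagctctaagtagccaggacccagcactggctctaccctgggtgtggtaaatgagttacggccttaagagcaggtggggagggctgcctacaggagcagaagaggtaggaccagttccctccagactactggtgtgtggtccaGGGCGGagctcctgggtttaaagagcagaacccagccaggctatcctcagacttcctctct
The motif was searched on both strands (GGGCGG or CCGCCC) and was found once, beginning 61 bases before the start. The same search found it in 30.5% of 33469 promoter windows of this length. The half-site of the glucocorticoid and mineralocorticoid receptors, AGAACA or TGTTCT on either strand, had 0 matches in this window and is held by 17.5% of the windows. A match of letters is a description and no evidence of binding.

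**Figure D1:**
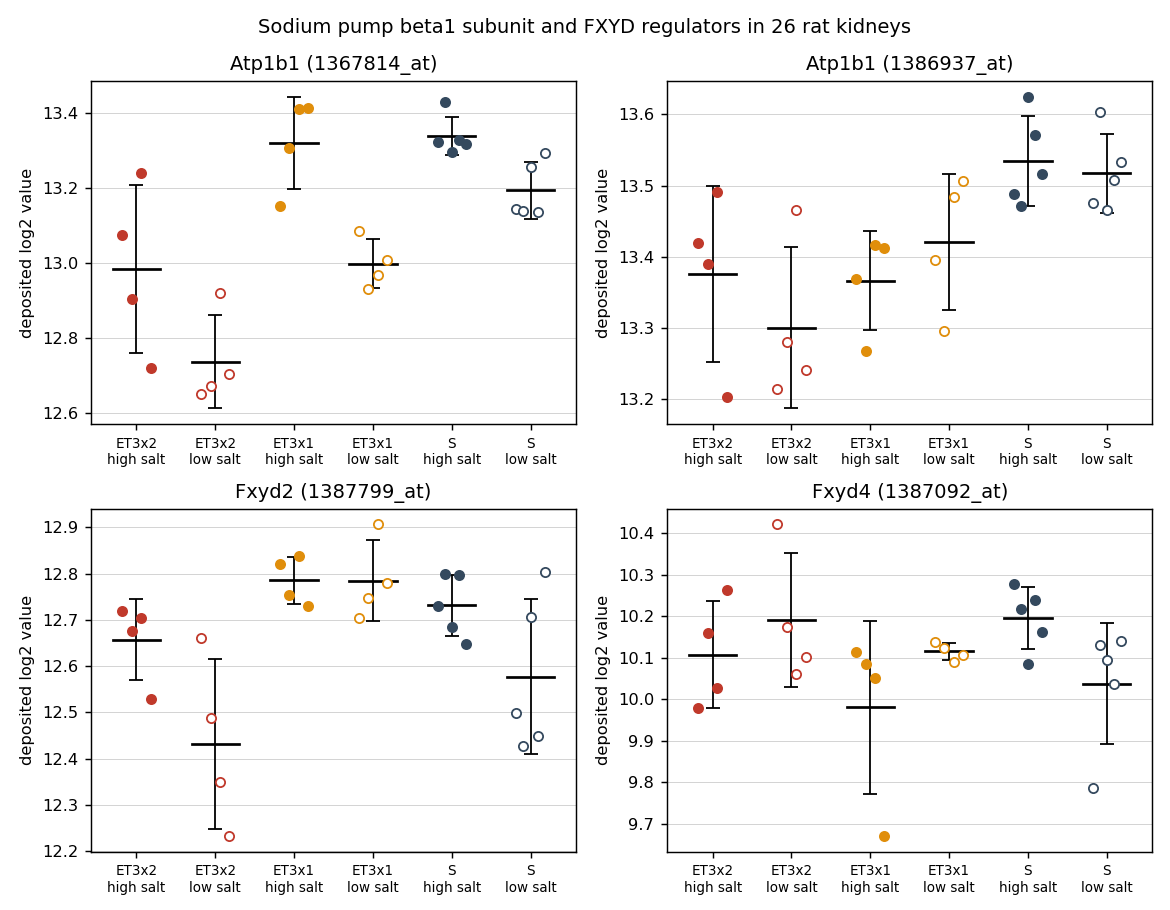
Deposited log2 values of the 4 probe sets (vertical axes) in each rat by strain and diet, with filled points for high salt, open points for low salt, a horizontal line for the group mean and bars for ± 1 SD (n = 4 or 5). Atp1b1 1367814_at was lowest in ET3x2 rats on low salt, with a mean of 12.74, while Fxyd4 overlapped between all groups.

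By its probe set 1367814_at, the beta1 subunit gene was the member whose level differed most between the strains. By 1386937_at its largest strain difference averaged over diets was -0.19, smaller in size than -0.24 for Fxyd2 in ET3x2 against ET3x1. Atp1b1 was lower in ET3x2 than in S kidneys by both of its probe sets, while Fxyd2 and Fxyd4 did not pass the test in that comparison. On high salt, Atp1b1 1367814_at had values of 13.08, 12.90, 13.24 and 12.72 in ET3x2 rats and 13.32, 13.43, 13.30, 13.33 and 13.32 in S rats. On low salt the same probe set had 12.65, 12.67, 12.92 and 12.71 in ET3x2 rats and 13.14, 13.14, 13.26, 13.14 and 13.29 in S rats. Every ET3x2 rat lay below every S rat on the same diet. The difference averaged over diets was -0.40 ± 0.06 on the log2 scale (SE), or 0.755 times the S level (limma, adjusted p = 3.6e-05), and all tested probe sets had a median difference of 0.01.

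The second probe set of Atp1b1 gave a smaller difference in the same direction. Atp1b1 1386937_at had values of 13.42, 13.39, 13.49 and 13.20 in ET3x2 rats on high salt and 13.49, 13.47, 13.62, 13.57 and 13.52 in S rats on high salt, so that the highest ET3x2 rat lay within the S range. On low salt it had 13.21, 13.28, 13.47 and 13.24 in ET3x2 rats and 13.47, 13.60, 13.47, 13.51 and 13.53 in S rats. The groups did not overlap, though the nearest rats, at 13.4651 in ET3x2 and 13.4660 in S, were almost level. Averaged over diets the difference was -0.19 ± 0.044, or 0.878 times the S level (adjusted p = 0.0032). With quantile normalization of the arrays that difference was -0.09 with an adjusted p of 0.0777. These 2 of the 4 probe sets passed where 28.5% of all tested probe sets did. The members share RNA and arrays with each other, and the 2 Atp1b1 probe sets share a gene, so they are not independent.

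Within each diet, ET3x2 and S differed by -0.35 ± 0.08 on high salt (adjusted p = 0.0157) and by -0.46 ± 0.08 on low salt (adjusted p = 0.00046) for Atp1b1 1367814_at. On high salt 1 of the 4 probe sets passed, against 4.25% of all tested, and on low salt 2 of the 4 passed, against 18.2%. Leaving out 1 rat gave 79 to 930 called probe sets on high salt, where all rats gave 658, lowest without ET3x2 replicate 2, and 1345 to 3907 on low salt, where all rats gave 2817, lowest without ET3x2 replicate 1. The high salt call was lost without ET3x2 replicate 2 (-0.33, adjusted p = 0.0672) or without ET3x2 replicate 4 (-0.27, adjusted p = 0.0862). For 1386937_at the differences were -0.16 ± 0.06 on high salt (adjusted p = 0.134) and -0.22 ± 0.06 on low salt (adjusted p = 0.0177). The low salt call for 1386937_at was lost without ET3x2 replicate 1 (-0.19, adjusted p = 0.0825) or replicate 4 (-0.20, adjusted p = 0.0588), with the Gapdh 3' to 5' ratio as a covariate (-0.19, adjusted p = 0.086), in the compared groups alone (-0.22, adjusted p = 0.0619) and after quantile normalization of the arrays (-0.0525, adjusted p = 0.521). On low salt the hybridisation control difference bioD minus bioC was also lower in ET3x2 (2.25) than in S (2.67), with an exact permutation p of 0.0159 that became 0.11 after adjustment over all quality tests. With that measure as a covariate the low salt difference of 1386937_at was -0.16 (adjusted p = 0.0952), and its part in the result beyond this fit was not tested.

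Set against S, ET3x1 rats were lower by 1 of the 2 probe sets of the beta1 subunit gene. Atp1b1 1386937_at had 13.37, 13.27, 13.42 and 13.41 in ET3x1 rats on high salt and 13.40, 13.30, 13.48 and 13.51 in ET3x1 rats on low salt. On high salt all 4 ET3x1 rats lay below the S rats, and on low salt the 2 groups overlapped. The difference averaged over diets was -0.13 ± 0.04 (adjusted p = 0.0244), which was lost without ET3x1 high salt replicate 2 (-0.12, adjusted p = 0.0568), without ET3x1 low salt replicate 2 (-0.11, adjusted p = 0.0683), or with array medians centred (-0.11, adjusted p = 0.0568). This was 1 of 4 probe sets passing, against 32.3% of all tested. By 1367814_at the ET3x1 rats had 13.15, 13.31, 13.41 and 13.41 on high salt and 13.08, 12.93, 12.97 and 13.01 on low salt, and the difference from S averaged -0.11 ± 0.06 (adjusted p = 0.143). It was -0.02 ± 0.08 on high salt, where the groups overlapped, and -0.20 ± 0.08 on low salt, where they did not (adjusted p = 0.0669). Within either diet, 0 of the 4 member probe sets passed in ET3x1 against S, while 14.5% of all tested did on high salt and 26.8% on low salt, and 2 of the 4 had an unadjusted p below 0.05 on each diet.

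Fxyd2, the gamma subunit gene, was lower in ET3x2 than in ET3x1 kidneys, and it passed the test in neither comparison with S. On high salt, Fxyd2 had 12.72, 12.68, 12.70 and 12.53 in ET3x2 rats and 12.82, 12.75, 12.84 and 12.73 in ET3x1 rats. On low salt it had 12.66, 12.49, 12.35 and 12.23 in ET3x2 rats and 12.70, 12.75, 12.91 and 12.78 in ET3x1 rats. All ET3x2 rats lay below all ET3x1 rats on the same diet, though on high salt the nearest rats were almost level. Averaged over diets, the Fxyd2 difference was -0.24 ± 0.06 (adjusted p = 0.0122), or 0.847 times the ET3x1 level, and on low salt alone it was -0.35 ± 0.08 (adjusted p = 0.0206), or 0.784 times that level. On high salt alone the difference was -0.13 ± 0.08 (adjusted p = 0.35).

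Those Fxyd2 calls depended on the processing. With quantile normalization the averaged difference was -0.12 (adjusted p = 0.0854), and with the 3' to 5' ratio of the Gapdh control probe sets as a covariate it was -0.23 (adjusted p = 0.0734). The low salt call was lost without ET3x1 low salt replicate 3 (-0.31, adjusted p = 0.0923) or replicate 4 (-0.35, adjusted p = 0.0566), without ET3x2 low salt replicate 3 (-0.32, adjusted p = 0.0536) or replicate 4 (-0.29, adjusted p = 0.0966), in a fit of the compared groups alone (-0.35, adjusted p = 0.0905) and after quantile normalization (-0.20, adjusted p = 0.112).

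S rats lay between the congenic strains for Fxyd2, with 12.73, 12.80, 12.69, 12.80 and 12.65 on high salt and 12.50, 12.43, 12.71, 12.45 and 12.80 on low salt. The S rats on low salt fell into a lower set of 3 and a higher pair, and they overlapped both congenic strains. Fxyd2 differed by -0.11 ± 0.06 between ET3x2 and S (adjusted p = 0.146) and by 0.13 ± 0.06 between ET3x1 and S (adjusted p = 0.0756), so neither passed the test.

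Atp1b1 1367814_at was also lower in ET3x2 than in ET3x1, with a difference of -0.30 ± 0.06 averaged over diets (adjusted p = 0.00336), while 1386937_at differed by -0.06 ± 0.05 (adjusted p = 0.457). With these, 2 of the 4 member probe sets passed in the averaged comparison of the congenic strains, against 11.1% of all tested. On high salt 1367814_at differed by -0.34 ± 0.08 (adjusted p = 0.0146), 1 of 4 probe sets against 9.22% of all tested, and the ranges overlapped through 1 ET3x2 rat at 13.24. On low salt Fxyd2 was the only one of the 4 that passed, against 2.73% of all tested, and 1367814_at differed by -0.26 ± 0.08 (adjusted p = 0.0895) with no overlap. The high salt call was lost without ET3x1 high salt replicate 3 (-0.31, adjusted p = 0.0567), ET3x2 high salt replicate 2 (-0.31, adjusted p = 0.0514) or replicate 4 (-0.25, adjusted p = 0.0613), in a fit of the compared groups alone (-0.34, adjusted p = 0.0518), and with the Gapdh ratio as a covariate (-0.25, adjusted p = 0.172). With the Gapdh ratio the averaged difference was -0.23 (adjusted p = 0.0593).

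Fxyd4 passed no test in any strain or diet comparison. On high salt it had 9.98, 10.16, 10.03 and 10.26 in ET3x2 rats, 10.11, 10.09, 10.05 and 9.67 in ET3x1 rats and 10.28, 10.22, 10.08, 10.24 and 10.16 in S rats. On low salt it had 10.42, 10.18, 10.06 and 10.10 in ET3x2 rats, 10.14, 10.12, 10.09 and 10.11 in ET3x1 rats and 9.79, 10.13, 10.09, 10.04 and 10.14 in S rats. The groups overlapped in each pair compared. The averaged differences were 0.03 ± 0.06 for ET3x2 against S (95% interval -0.10 to 0.16), -0.07 ± 0.06 for ET3x1 against S (-0.20 to 0.06) and 0.10 ± 0.07 for ET3x2 against ET3x1 (-0.04 to 0.24). Its change with the smallest adjusted p between strains was in ET3x1 against S on high salt, -0.22 ± 0.09 (adjusted p = 0.108), where 1 ET3x1 rat lay at 9.67.

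After 24 hours of high salt, 1 of the 4 probe sets differed from low salt with the strains averaged, against 14.5% of all tested. Atp1b1 1367814_at averaged 13.21 on high salt and 12.98 on low salt over the 3 strains, a difference of 0.24 ± 0.05 or 17.9% (adjusted p = 0.00091). That call was lost with the Gapdh ratio as a covariate (0.14, adjusted p = 0.51), a measure whose own means differed between the diets in the congenic strains. Atp1b1 1386937_at differed by 0.01 ± 0.04 (adjusted p = 0.857), so the 2 probe sets of this gene did not give the same result. Fxyd2 differed by 0.13 ± 0.05 (adjusted p = 0.0688) and Fxyd4 by -0.02 ± 0.05 (95% interval -0.13 to 0.09, adjusted p = 0.848).

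Within the strains, the difference of Atp1b1 1367814_at between high and low salt was 0.25 ± 0.08 in ET3x2 (adjusted p = 0.202), 0.32 ± 0.08 in ET3x1 (adjusted p = 0.00974) and 0.14 ± 0.07 in S (adjusted p = 0.314). The ET3x1 call was lost with the Gapdh covariate (0.16, adjusted p = 0.636). High salt rats lay above all low salt rats in ET3x1 and in S, and the diets overlapped in ET3x2. In S the nearest rats, at 13.2966 on high salt and 13.2944 on low salt, were almost level. One of the 4 probe sets passed in ET3x1, against 15.9% of all tested. In ET3x2 0 of 4 passed, against 0.304% of all tested, with 2 of 4 at an unadjusted p below 0.05, and in S 0 of 4 passed, against 2.78%, with 0 of 4 at an unadjusted p below 0.05. Leaving out 1 rat gave 1 to 294 called probe sets in ET3x2, with 47 over all rats and 1 without high salt replicate 1 or 3, and 145 to 1000 in S, with 430 over all rats and 145 without low salt replicate 4. Fxyd2 differed by 0.22 ± 0.08 in ET3x2 (adjusted p = 0.272), 0.00 ± 0.08 in ET3x1 (adjusted p = 0.996) and 0.15 ± 0.08 in S (adjusted p = 0.28).

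No member probe set was shown to respond differently to salt between the strains. In limma's tests of the differences between salt responses, 0 of 12 member results passed and 1 of 12 had an unadjusted p below 0.05. All tested probe sets passed at 0.0194% for ET3x2 minus S, 5.49% for ET3x1 minus S and 0.304% for ET3x2 minus ET3x1. The member result with the smallest adjusted p was Fxyd4 for ET3x1 minus S, at -0.29 ± 0.13 (adjusted p = 0.169). Fxyd4 differed between the diets by -0.13 ± 0.10 in ET3x1 and by 0.16 ± 0.09 in S.

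**Figure D2:**
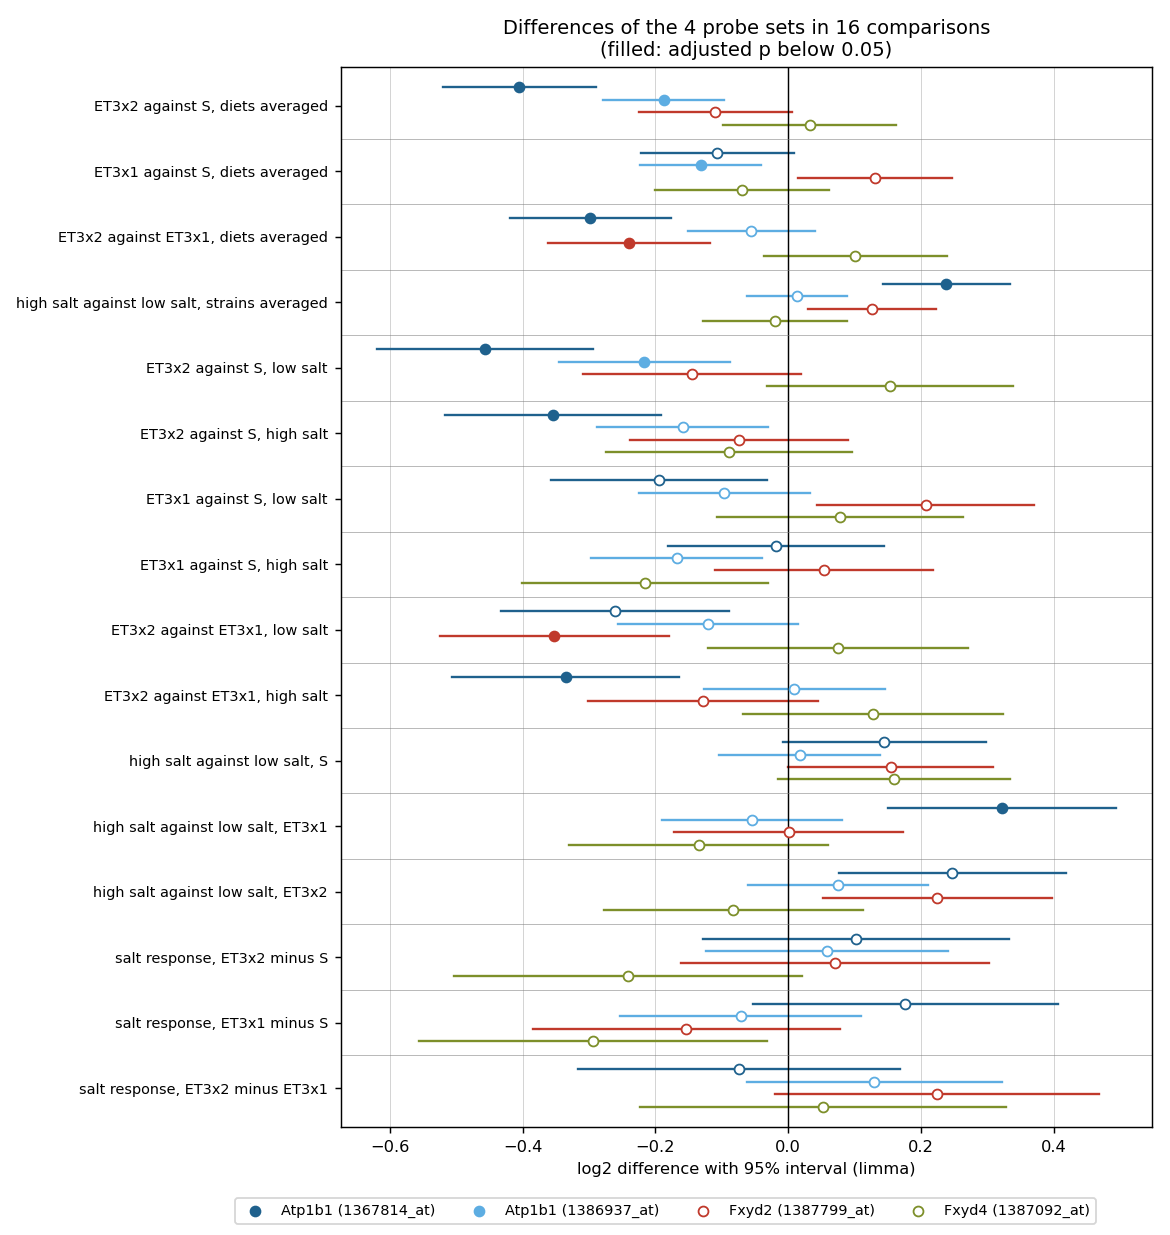
Log2 differences of the 4 probe sets with 95% intervals from limma in all 16 comparisons, the first-named group minus the second, with filled points for an adjusted p below 0.05. The intervals of Atp1b1 1367814_at lay wholly below 0 in ET3x2 against S on both diets, and no point in the 3 salt response rows at the bottom was filled.

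In order of level, Atp1b1 1367814_at ran as S on high salt (13.34 ± 0.05, SD, n = 5), ET3x1 on high salt (13.32 ± 0.12, n = 4), S on low salt (13.19 ± 0.08, n = 5), ET3x1 on low salt (13.00 ± 0.07, n = 4), ET3x2 on high salt (12.98 ± 0.22, n = 4) and ET3x2 on low salt (12.74 ± 0.12, n = 4). Neighbours at the first and the fourth step lay closer than their pooled SD, and the only neighbours without overlap were S and ET3x1 on low salt. For 1386937_at the order was S on high salt (13.53 ± 0.06), S on low salt (13.52 ± 0.06), ET3x1 on low salt (13.42 ± 0.10), ET3x2 on high salt (13.38 ± 0.12), ET3x1 on high salt (13.37 ± 0.07) and ET3x2 on low salt (13.30 ± 0.11). Its only step above the pooled SD was between S and ET3x1 on low salt.

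Fxyd2 ran from ET3x1 on high salt (12.79 ± 0.05) and on low salt (12.78 ± 0.09) through S on high salt (12.73 ± 0.07), ET3x2 on high salt (12.66 ± 0.09) and S on low salt (12.58 ± 0.17) to ET3x2 on low salt (12.43 ± 0.18). For Fxyd4 the order was S on high salt (10.20 ± 0.07), ET3x2 on low salt (10.19 ± 0.16), ET3x1 on low salt (10.12 ± 0.02), ET3x2 on high salt (10.11 ± 0.13), S on low salt (10.04 ± 0.15) and ET3x1 on high salt (9.98 ± 0.21). No 2 neighbours in either order differed by more than their pooled SD. Levels of different probe sets are not set against each other, since each probe set has its own response.

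The difference between the 2 Atp1b1 probe sets within an array, 1367814_at minus 1386937_at, itself moved with strain and diet. It averaged -0.48 in ET3x2 and -0.26 in S, a difference of -0.22 (permutation test with 100000 draws, adjusted p = 0.00056). In ET3x2 against ET3x1, which averaged -0.23, the difference was -0.24 (permutation test, adjusted p = 0.00056). On high salt it averaged -0.21 and on low salt -0.44, a difference of 0.23 (permutation test, adjusted p = 0.00028). ET3x1 and S differed by 0.03 (permutation p = 0.666). The 4 p-values were adjusted together, and this measure was added after the values were seen.

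The Gapdh ratio, which is the log2 signal of the 3' control probe set minus that of the 5' one and is read as a measure of RNA integrity, had lower means on high than on low salt in the congenic strains. Its means on RAE230A were 0.75 on high salt and 0.95 on low salt in ET3x2, 0.59 and 0.88 in ET3x1, and 0.81 and 0.83 in S. The exact permutation p for high against low salt was 0.0571 in ET3x2, 0.0286 in ET3x1 and 0.706 in S. Between strains it was 0.0159 for ET3x1 against S on high salt, 0.0286 for ET3x2 against ET3x1 on high salt and 0.0476 for ET3x2 against S on low salt. The same ratio of the actin control probe sets averaged 0.878 on high salt and 1.05 on low salt in ET3x2, 0.609 and 1.22 in ET3x1, and 0.923 and 1.14 in S, with an exact permutation p of 0.0286 in ET3x1. The lowest adjusted p over 54 quality tests was 0.11. The smallest p that 4 against 4 rats allow is 0.0286.

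Over the 26 rats the Gapdh ratio correlated with Atp1b1 1367814_at (Pearson r = -0.576, adjusted permutation p = 0.00532; Spearman rho = -0.588, adjusted p = 0.0047), and r was -0.559 without the 2 rats farthest from the median ratio. Within groups r was -0.358 (adjusted permutation p = 0.594). With 1386937_at r was -0.0568, with Fxyd2 -0.406, with Fxyd4 0.31, and with the difference between the Atp1b1 probe sets -0.701. Within groups the last of these was -0.27 (adjusted permutation p = 0.594).

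The other quality measure, bioD minus bioC, moved with Atp1b1 1386937_at within groups, and with Fxyd4 by rank correlation only. The measure spread most in S rats on high salt, with an SD of 0.64 on RAE230A, against 0.04 to 0.27 in the other groups. Over all rats it gave rho = 0.45 with Atp1b1 1367814_at (adjusted permutation p = 0.0342) and r = 0.215 (adjusted permutation p = 0.485). Without the 2 rats farthest from its median that r was 0.805, and within groups it was 0.089 (adjusted permutation p = 0.549). With Fxyd2 the measure gave r = 0.13 over all rats and 0.0888 within groups. With Atp1b1 1386937_at it gave r = 0.3 over all rats (adjusted permutation p = 0.339; rho = 0.492, adjusted p = 0.0339), 0.662 without the 2 rats farthest from its median, and 0.47 within groups (adjusted permutation p = 0.0188; rho = 0.601, adjusted p = 0.017). With Fxyd4 it gave r = -0.476 (adjusted permutation p = 0.0874; rho = -0.48, adjusted p = 0.0339), -0.416 without those rats, and -0.271 within groups (adjusted permutation p = 0.0831; rho = -0.422, adjusted p = 0.0342).

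With the ratio as a covariate, all probe sets called for salt numbered 25, against 2239 without the covariate. The ratio had lower means on high salt in the congenic strains. A fit with this covariate therefore cannot fully tell salt and the ratio apart, and a salt call lost in it is given as a description. The ET3x2 against S difference of 1367814_at still passed with the covariate. Over all alternative settings and each rat left out in turn, that averaged difference ranged from -0.45 to -0.34 and passed in each. The low salt difference ranged from -0.52 to -0.35 and also passed in each.

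**Figure D3:**
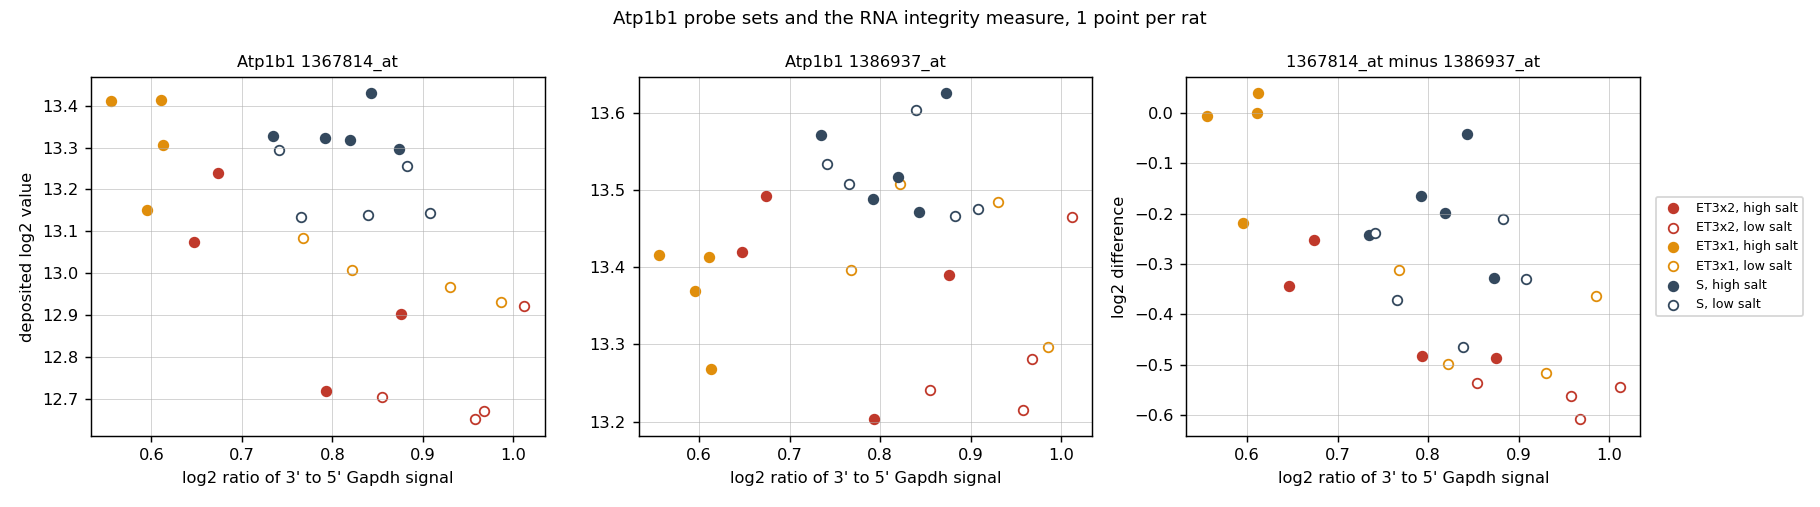
Log2 values of the Atp1b1 probe sets 1367814_at and 1386937_at, and the difference between them (vertical axes), against the Gapdh 3' to 5' ratio (log2, RAE230A), 1 point per rat, coloured by strain and filled for high salt. The value of 1367814_at fell with the ratio over all rats (r = -0.576) and that of 1386937_at had an r of -0.0568.

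The members did not follow each other closely across rats. For the brighter Atp1b1 probe set, r over 26 rats was 0.194 with Fxyd2 and -0.218 with Fxyd4, and Fxyd2 with Fxyd4 gave 0.067, with adjusted permutation p-values of 0.511, 0.511 and 0.744 and Spearman values of 0.108, -0.136 and 0.00855. Leaving out the 2 rats farthest from the median gave 0.154, 0.0632 and 0.0535, and within groups r was 0.0467, -0.409 and 0.354. The 2 Atp1b1 probe sets correlated at r = 0.642 (rho = 0.5, adjusted permutation p = 0.00147), at 0.528 without those 2 rats and at 0.577 within groups (adjusted permutation p = 0.0577). Atp1b1 1367814_at with Fxyd2 gave r = 0.509 (rho = 0.512, adjusted permutation p = 0.0115), 0.521 without 2 rats and 0.22 within groups (adjusted permutation p = 0.314). These values moved with normalization, since quantile-normalized arrays gave 0.295 for the 2 Atp1b1 probe sets and 0.135 for 1367814_at with Fxyd2. The pairs of members named first each changed sign. For the brighter Atp1b1 probe set r became -0.291 with Fxyd2 and 0.115 with Fxyd4, and Fxyd2 with Fxyd4 gave -0.312.

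Of 9 other pump and FXYD genes with a probe set, 6 were tested: Atp1b2 and Atp1b3, which encode other beta subunits, and Fxyd1, Fxyd3, Fxyd5 and Fxyd6. Atp1a4, Atp1b4 and Fxyd7 were below the filter. In ET3x2 against S, 2 of the 6 were higher and 1 was lower, where 14.6% of all tested probe sets were higher and 14% lower. With diets averaged, the 2 higher genes were Fxyd1, or phospholemman, the pump regulator of heart and muscle, at 0.21 ± 0.05 (adjusted p = 0.00337), and Fxyd5, or dysadherin, which also affects cell adhesion, at 0.29 ± 0.07 (adjusted p = 0.00486). Fxyd1 passed on low salt (0.34 ± 0.07, adjusted p = 0.00188) and not on high salt (0.08 ± 0.07, adjusted p = 0.548). Fxyd5 passed on high salt (0.41 ± 0.10, adjusted p = 0.0264) and not on low salt (0.17 ± 0.10, adjusted p = 0.259). The lower gene was Atp1b3, the beta3 subunit, at -0.20 ± 0.07 (adjusted p = 0.0228), which was lost without ET3x2 high salt replicate 2 (-0.18, adjusted p = 0.0549) or ET3x2 low salt replicate 1 (-0.17, adjusted p = 0.0631). Atp1b3 passed on neither diet alone (adjusted p = 0.143 on high salt and 0.19 on low salt). The median over the 6 was 0.12, and over all tested probe sets it was 0.01.

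ET3x1 against S also gave 2 higher genes and 1 lower one among the 6, with the same S rats in both comparisons, where 16.3% of all tested were higher and 16% lower. Fxyd5 differed by 0.36 ± 0.07 (adjusted p = 0.00074), Fxyd1 by 0.17 ± 0.05 (adjusted p = 0.00897) and Atp1b3 by -0.22 ± 0.07 (adjusted p = 0.0136). Fxyd5 passed on each diet alone (adjusted p = 0.048 on high salt and 0.00459 on low salt). Fxyd1 and Atp1b3 passed on low salt (adjusted p = 0.00798 and 0.0125) and not on high salt (adjusted p = 0.416 and 0.439). Fxyd1 averaged 8.50 ± 0.07 in ET3x2, 8.51 ± 0.08 in ET3x1 and 8.43 ± 0.03 in S on high salt, and 8.77 ± 0.19, 8.69 ± 0.11 and 8.43 ± 0.05 on low salt in the same order of strains (SD). In ET3x2 against ET3x1, where 6% of all tested were higher and 5.14% lower, 0 of the 6 passed in limma, and the one nearest was Fxyd3 at 0.20 ± 0.07 (adjusted p = 0.0647), which passed without S high salt replicate 5 (adjusted p = 0.0407), without S low salt replicate 1 (adjusted p = 0.0493) and in the compared groups alone (adjusted p = 0.0213). On high against low salt 2 of the 6 were higher, against 9.61% of all tested, and 1 was lower, against 4.86%: Atp1b3 by 0.19 ± 0.05 (adjusted p = 0.0183), Fxyd6 by 0.18 ± 0.06 (adjusted p = 0.0439) and Fxyd1 by -0.15 ± 0.04 (adjusted p = 0.0145). The Fxyd6 call was lost in 16 of 26 omissions of 1 rat and with no filter on dim probe sets (adjusted p = 0.0547), and the Atp1b3 call was lost with quantile normalization (0.13, adjusted p = 0.0946). With the Gapdh ratio as a covariate the 3 salt differences were 0.16, 0.13 and -0.16, none of which passed (adjusted p = 0.572, 0.698 and 0.405). Salt and the ratio cannot be fully told apart in that fit, since the ratio had lower means on high salt in the congenic strains. Fxyd6 lies next to Fxyd2 on chromosome 8, while Fxyd1, Fxyd5 and Fxyd7 are neighbours on chromosome 1.

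**Figure D4:**
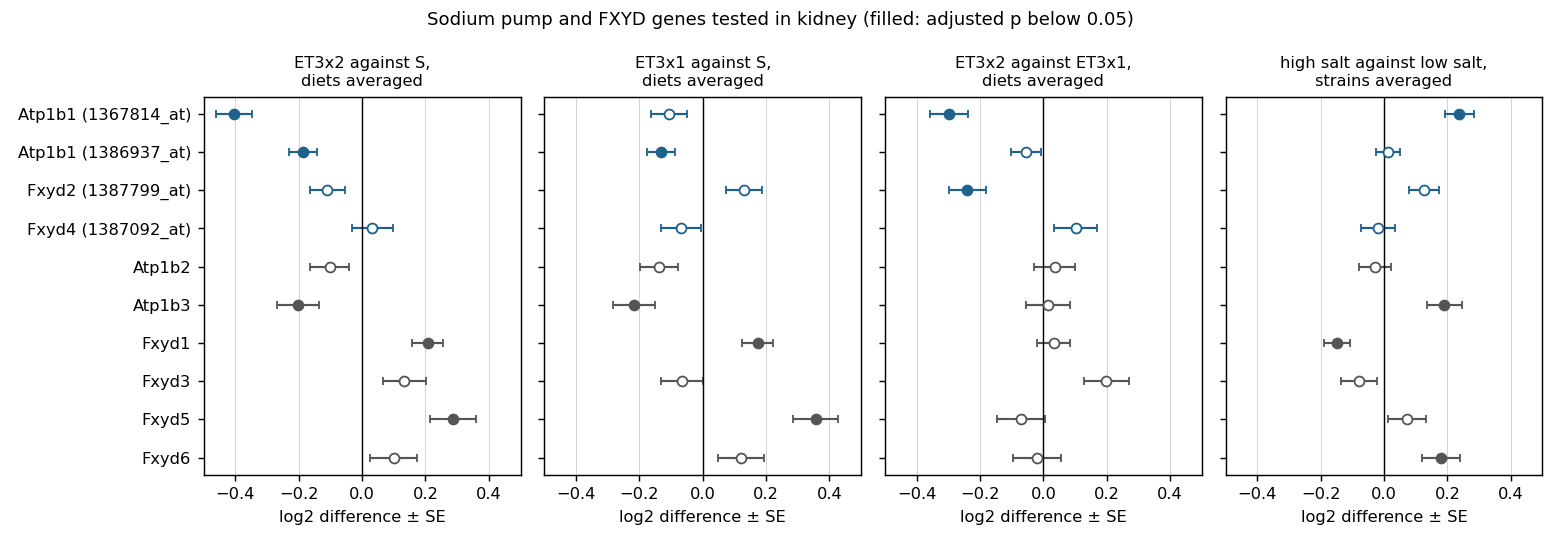
Log2 differences ± SE of the 4 member probe sets (blue) and of the 6 other tested pump and FXYD genes (grey) in the 3 strain comparisons with diets averaged and in the salt comparison with strains averaged, filled for an adjusted p below 0.05. Atp1b1 and Atp1b3 lay below 0 in both comparisons with S, and Fxyd1 and Fxyd5 above 0.

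Among transporters that work with the pump in tubules, 9 of the 12 listed were tested. In ET3x2 against S, 0 were higher and 1 was lower, where 14.6% of all tested probe sets were higher and 14% lower: Slc12a1, the apical sodium-potassium-chloride cotransporter NKCC2 of the thick ascending limb, by -0.51 ± 0.09 (adjusted p = 0.00031). Slc12a1 was also the 1 lower gene in ET3x2 against ET3x1, where 5.14% of all tested were lower. That difference was -0.38 ± 0.10 (adjusted p = 0.0139), and with the Gapdh ratio as a covariate it was -0.24 (adjusted p = 0.199). In ET3x1 against S, 2 were higher and 1 was lower, where 16.3% of all tested were higher and 16% lower. These were Bsnd, the beta subunit of renal chloride channels, at 0.21 ± 0.07 (adjusted p = 0.0251), Scnn1b at 0.14 ± 0.05 (adjusted p = 0.0259) and Scnn1g at -0.19 ± 0.05 (adjusted p = 0.0054), the last 2 being subunits of the epithelial sodium channel. The Bsnd call was lost without ET3x1 high salt replicate 3 (adjusted p = 0.055) and the Scnn1b call without ET3x1 low salt replicate 1 (adjusted p = 0.0506), and both were lost with the Gapdh covariate (adjusted p = 0.104 and 0.0815).

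On high salt 1 transporter was higher and 1 was lower, where 9.61% of all tested were higher and 4.86% lower. Kcnj1, the potassium channel ROMK that returns potassium to the lumen, differed by 0.69 ± 0.13 (adjusted p = 0.00085), and Kcnj16, a basolateral potassium channel subunit, by -0.30 ± 0.05 (adjusted p = 0.00049). With the Gapdh ratio as a covariate these were 0.16 (adjusted p = 0.833) and -0.29 (adjusted p = 0.2), and with the probe sets of each gene averaged 0 transporters were lower.

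Of 16 hormone and kinase regulators 12 were tested, and in ET3x2 against S 2 were higher and 3 lower, where 14.6% of all tested were higher and 14% lower. Ppp1r1b, the phosphatase inhibitor DARPP-32 that acts in dopamine signalling to the pump, was higher by 0.47 ± 0.07 (adjusted p = 0.00015). Wnk1, a kinase that controls sodium and potassium transport, was lower, at -0.31 ± 0.06 (adjusted p = 0.00044), and Nr3c1, the glucocorticoid receptor, was lower, at -0.38 ± 0.08 (adjusted p = 0.00136). In ET3x1 against S 3 were higher and 4 lower, where 16.3% of all tested were higher and 16% lower, with Wnk1 at -0.23 ± 0.06 (adjusted p = 0.00379), Add3, the gamma subunit of the cytoskeletal protein adducin, at -0.24 ± 0.06 (adjusted p = 0.00467) and Ppp1r1b at 0.29 ± 0.07 (adjusted p = 0.00504). Of these 7 calls, those of Hsd11b2, Prkaca and Sik1, singled out after their values were seen, were lost in 14, 21 and 9 of the alternative settings and rat omissions. Sik1, a salt-inducible kinase, was the only one of the 12 that passed between the congenic strains, higher in ET3x2 by 0.30 ± 0.05 (adjusted p = 0.00064), and with salt, at -0.18 ± 0.04 (adjusted p = 0.00153), where the Gapdh ratio as a covariate gave -0.10 (adjusted p = 0.603). Among all tested probe sets, 11.1% passed between the congenic strains and 14.5% with salt. Of 6 listed transcription factors 1 was tested, Sp1, which was lower in ET3x2 than in S by -0.20 ± 0.05 (adjusted p = 0.00729) and passed in none of the other 3 averaged comparisons.

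Markers of other kidney cells moved with strain beside these genes. All 3 tested glomerular genes were lower and 4 of 5 tested leukocyte genes were higher, in ET3x2 and in ET3x1 against the same S rats. Among all tested probe sets, 14% were lower and 14.6% higher in ET3x2 against S, and 16% and 16.3% in ET3x1 against S. The summed glomerular level (log2 of the summed linear values) averaged 10.16 in ET3x2, 10.00 in ET3x1 and 10.58 in S on high salt, and 10.33, 10.22 and 10.60 on low salt. The summed leukocyte level averaged 12.55, 12.37 and 12.25 on high salt and 12.36, 12.49 and 12.03 on low salt in that order. Single genes of the tubule segments that carry the members differed by as much. In ET3x2 against S, 1 of 7 proximal tubule genes was higher and 2 were lower, against 14.6% and 14% of all tested probe sets. These were Ggt1 at 0.67 (adjusted p = 0.0301), and the endocytic receptor genes Lrp2 at -0.52 (adjusted p = 4.5e-06) and Cubn at -0.35 (adjusted p = 0.00016). Of 5 thick ascending limb genes 0 were higher and 1 was lower, Slc12a1, and of 6 tested principal cell genes 0 were higher and 1 was lower, the water channel gene Aqp3 at -0.35 (adjusted p = 0.0035). The summed proximal tubule level averaged 14.74 in ET3x2, 14.75 in ET3x1 and 14.75 in S on high salt, and 14.73, 14.89 and 14.76 on low salt. The summed thick ascending limb level averaged 13.50, 13.51 and 13.62 on high salt and 13.50, 13.59 and 13.60 on low salt, and the summed principal cell level 12.85, 12.83 and 12.94 on high salt and 12.74, 12.88 and 12.82 on low salt, in that order. A sum of linear values follows its brightest genes and says little of the dimmer ones. In the thick ascending limb the brightest was Umod, with a mean of 13.32, where the next, Slc12a1, had 9.53.

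Markers also moved with salt, where 9.61% of all tested probe sets were higher and 4.86% lower. On high against low salt 2 of 3 smooth muscle genes were higher, Acta2 at 0.42 (adjusted p = 3.5e-05) and Tagln at 0.52 (adjusted p = 0.00048), while 2 of 3 glomerular and 2 of 3 endothelial genes were lower. The summed smooth muscle level averaged 10.33 on high salt and 10.10 on low salt in ET3x2, 10.69 and 10.23 in ET3x1, and 10.66 and 10.17 in S. Of the 5 thick ascending limb genes 2 were higher on high salt, Kcnj1 and Ptger3 (0.24, adjusted p = 0.00686), and of the 7 proximal tubule genes 1 was higher, Slc5a12 (0.41, adjusted p = 0.00589). The part of these cell types in the differences of the members was not tested.

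The genes whose levels followed each member most closely were found among 8824 genes by Pearson r over the 26 rats, as a description of these arrays. For Atp1b1 1386937_at they were Kap (kidney androgen-regulated protein) at 0.875, Wnk1 at 0.874, Rybp at 0.874, Zfp638 at 0.861 and Sbno1 at 0.861. For Fxyd2 they were Ogdh, a subunit of the mitochondrial oxoglutarate dehydrogenase, at 0.869, Gcsh at 0.861, Tmem59 at 0.859, Cyc1, the cytochrome c1 of the respiratory chain, at 0.858 and Prr3 at 0.839. For Fxyd4 they were Ift122 at 0.806, Fbxw2 at 0.803, Fancl at 0.780, Irx1 at 0.761 and Gfer at 0.750. After the group means were removed, these 15 values lay between 0.699 and 0.831. Points of one array share its labelling and normalization, and the top of so many genes is high in part by selection.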

How the data were processed

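Left kidney RNA of 26 rats was hybridised to RAE230A and RAE230B arrays, 52 in all, per the labels. The authors deposited log2 values, whose near-equal array medians show prior normalization. How they were summarised and normalized is not given in the sources used here, and the number of arrays limits the precision.

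Control probe sets (57 per chip) were not tested, and neither were those whose mean over all arrays fell under the median of the chip, 7.51 on RAE230A and 6.38 on RAE230B. Each chip was fitted with limma 3.58.1 (R 4.3.3), with 6 groups, an intensity trend and 20 residual degrees of freedom. Benjamini-Hochberg adjustment ran over both chips (15473 probe sets), and an adjusted p below 0.05 was called. All 26 rats entered each fit, and all tests were two-sided. The fit was tested on simulated data whose noise was independent between probe sets. Those data held no shifts shared by the probe sets of an array, so they do not test calls that move with array quality. Exact or 100000-draw permutation tests used scipy 1.17.1. The labels give no litter or batch. No array pair held identical values.

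Symbols came from the platform annotation, updated through the GRCr8 gene table. A single symbol was found for 11110 tested probe sets, several for 274 and none for 4089. Members were named whatever their value. From lists of partner genes at most 3 with the smallest p were named, each gene by its brightest probe set, and for each member the 5 genes of highest r. The members, lists and tests were chosen with earlier results of these data known. The Atp1b1 probe set difference and the correlations with quality measures and with Atp1b1 1367814_at were added after seeing the data. Alternatives were array weights, quantile normalization, no filter, no intensity trend, centring of medians, a stricter filter (brightest 25%), the compared groups alone, a covariate (Gapdh ratio or bioD minus bioC), and omission of each rat.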

Additional observations from a re-analysis of the deposited data

Results flagged for a closer look

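In 36 sets of values of 1 group, 2 rats lay far from the rest of their group (Dixon's test at 95%), where chance gives about 1 in 20. Atp1b1 1367814_at was 13.43 in S high salt replicate 2, above the other 4 rats of that group at 13.30 to 13.33. Fxyd4 was 9.67 in ET3x1 high salt replicate 4, below the other 3 at 10.05 to 10.11.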

How the results depend on the processing

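No paired analysis was possible because replicate numbers were given in accession order and pair no rats. Of the 12 calls, 2 held under all 9 alternatives and without any rat: Atp1b1 1367814_at in ET3x2 against S averaged and on low salt. Where a cause is not given, it was not tested.

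Quantile normalization gave, for 1367814_at, ET3x1 against S -0.13 averaged and -0.23 on low salt, both past the threshold; for 1386937_at, ET3x2 against S -0.0889 averaged and -0.0525 on low salt, ET3x1 against S on high salt -0.24, now past it, ET3x2 against ET3x1 0.0771 averaged and 0.0431 on low salt, and a salt response difference of ET3x2 and S of -0.0729; for Fxyd2, ET3x2 against ET3x1 -0.12 averaged and -0.20 on low salt and salt in ET3x1 -0.0153; and for Fxyd4, ET3x1 against S on low salt -0.0292 and a salt response difference of the congenic strains of -0.0568. Centred medians gave 1386937_at -0.11 in ET3x1 against S and -0.0092 in ET3x2 against ET3x1 on high salt, and Fxyd2 0.23 in ET3x1 against S on low salt, past the threshold, and -0.0043 for salt in ET3x1. The brightest 25% gave Fxyd2 0.21 in ET3x1 against S on low salt, past it.

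Array weights brought past the threshold 1367814_at in ET3x1 against S (-0.19) and ET3x2 against ET3x1 (-0.29) on low salt and for salt in ET3x2 (0.37), 1386937_at in ET3x1 against S on high salt (-0.15) and ET3x2 against ET3x1 on low salt (-0.18), Fxyd2 in ET3x1 against S averaged (0.16) and on low salt (0.28) and for salt averaged (0.14), and Fxyd4 in ET3x1 against S on high salt (-0.24). They turned the salt response difference of the congenic strains for 1367814_at (0.0140) and Fxyd4 (-0.0017), salt in S for 1386937_at (-0.0252), salt in ET3x1 for Fxyd2 (-0.0385) and ET3x2 against S for Fxyd4 (-0.0220).

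The Gapdh covariate ended the calls of 1367814_at in ET3x2 against ET3x1 and for salt, of 1386937_at in ET3x2 against S on low salt and of Fxyd2 averaged in ET3x2 against ET3x1. It gave 1367814_at -0.23 averaged and -0.25 on high salt in ET3x2 against ET3x1, 0.14 for salt, 0.16 for salt in ET3x1 and -0.0050 for the salt response difference of ET3x2 and S; 1386937_at -0.19 in ET3x2 against S on low salt and -0.0228 for salt; Fxyd2 -0.23 in ET3x2 against ET3x1 and -0.0178 for salt in ET3x1; and the Atp1b1 probe set difference -0.0054 in ET3x1 against S. The bioD minus bioC covariate gave 1386937_at -0.16 in ET3x2 against S on low salt, no longer past the threshold, -0.22 in ET3x1 against S on high salt, past the threshold, and -0.0244 for the salt response difference of ET3x2 and S, and Fxyd2 -0.0084 for salt in ET3x1. The compared groups alone, with fewer rats, gave 1367814_at -0.20 in ET3x1 against S on low salt, past the threshold, and ended the calls of 1367814_at at -0.34 in ET3x2 against ET3x1 on high salt, 1386937_at -0.22 in ET3x2 against S on low salt and Fxyd2 -0.35 in ET3x2 against ET3x1 on low salt.

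Called probe sets numbered 4415 in ET3x2 against S, 7702 with no filter and 2345 in the brightest 25%; 5001 in ET3x1 against S, 9427 and 2457; 1725 in ET3x2 against ET3x1, 3055 and 775, with 462 under the Gapdh covariate; and 2239 for salt, 1358 in the brightest 25%, 4234 with array weights and 25 under the Gapdh covariate.

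Leaving out each rat moved the following member results over or under a threshold or 0. For 1367814_at, ET3x2 against S on high salt ranged from -0.44 to -0.27, ET3x1 against S from -0.0496 to 0.0379 on high salt and -0.22 to -0.17 on low salt, ET3x2 against ET3x1 from -0.42 to -0.25 on high salt and -0.32 to -0.23 on low salt, salt in ET3x2 from 0.16 to 0.34 and the salt response difference of the congenic strains from -0.16 to 0.0137. For 1386937_at, ET3x2 against S on low salt ranged from -0.27 to -0.19, ET3x1 against S from -0.15 to -0.11 averaged and -0.18 to -0.14 on high salt, ET3x2 against ET3x1 on high salt from -0.0292 to 0.0671, salt in S from -0.0051 to 0.0390 and salt averaged from -0.0010 to 0.0321. For Fxyd2, ET3x2 against ET3x1 on low salt ranged from -0.43 to -0.29, ET3x1 against S from 0.11 to 0.16 averaged and 0.17 to 0.26 on low salt, salt in ET3x1 from -0.0262 to 0.0416 and salt averaged from 0.10 to 0.15. For Fxyd4, ET3x2 against S ranged from -0.0065 to 0.0535, ET3x2 against ET3x1 on low salt from -0.0019 to 0.12, salt from -0.0406 to 0.0148 and the salt response difference of the congenic strains from -0.0510 to 0.13. Called probe sets ranged from 842 to 1951 in ET3x2 against ET3x1, lowest without ET3x1 low salt replicate 1, with 1047 without ET3x1 high salt replicate 3. Within a diet or strain they ranged from 1126 to 2440 and 2448 to 4404 in ET3x1 against S on high and low salt, 587 to 1702 and 165 to 533 in ET3x2 against ET3x1 on high and low salt, 1353 to 3328 for salt in ET3x1, and 0 to 44, 308 to 1547 and 0 to 361 for the salt response differences of ET3x2 and S, of ET3x1 and S and of the congenic strains. Among other pump genes, Fxyd6 for salt ranged from 0.15 to 0.21, with its call lost in 16 omissions, and Fxyd3 in ET3x2 against ET3x1 from 0.17 to 0.22, past the threshold in 2.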
